A study of Mus musculus with 4 samples.

Results

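The 8 heavy chain constant genes of the mouse antibody locus, *Ighm*, *Ighd*, *Ighg3*, *Ighg1*, *Ighg2b*, *Ighg2c*, *Ighe*, and *Igha*, were followed in sorted dural leukocytes. They were chosen by symbol, and all 8 were found among the 55401 genes of the table. Leukocytes had been sorted as CD45+ cells from the dura mater, a membrane that lies under the skull, of male C57BL/6J mice with the genotype WT that had received 1 of 2 AAV9 vectors into the cisterna magna at 4 wk of age. The AAV-mVEGF-C vector encodes mouse VEGF-C in full length, whereas the AAV-CTRL vector encodes soluble VEGFR-3 domains with an Ig tail that do not bind VEGF-C, so both groups received a vector. Each group had 2 libraries (the control pools and the VEGF-C pools, in the order 1 and 2 wherever a pair of values is given), and each library came from the pooled dura of 10 to 12 mice. Pools rather than single mice were therefore the replicates, and p-values describe the spread between pools. The source of the Ig tail was not given in the sources used here, and whether reads from it were assigned to an IgG gene in the control pools was not tested, which limits what the control IgG levels, shares, and ratios stand for.

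An antibody is built from heavy and light chains, and the constant gene of the heavy chain sets the class. Naive B cells transcribe *Ighm* and *Ighd* together, as IgM and IgD, from one rearranged locus. In class switching, a deletion in the locus brings a downstream constant gene next to the variable region, and the cell then makes IgG, IgE, or IgA. Each constant gene can give a membrane form, which is part of the B cell receptor, or a secreted form, which plasma cells make in large amounts. In the text, *Ighm* and *Ighd* are called unswitched and the other 6 genes switched, a description of transcripts and not of cells. The label goes by the constant gene alone, and whether the transcripts were joined to a variable region was not tested. In bulk RNA, fewer cells of a type and less RNA per cell cannot be told apart.

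All 8 genes lie on the minus strand of chromosome 12, and the order of transcription runs from *Ighm* to *Igha* (GENCODE M21, GRCm38). *Ighm* spans chr12:113418558-113422730 and *Ighd* chr12:113406604-113416324. The IgG genes follow, with *Ighg3* at chr12:113356224-113361232, *Ighg1* at chr12:113325240-113330523, *Ighg2b* at chr12:113302965-113307933, and *Ighg2c* at chr12:113285325-113288932. *Ighe* lies at chr12:113269260-113273248 and *Igha* at chr12:113254830-113260236.

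The IgG genes are close relatives that differ most clearly in the hinge, the flexible part that joins the antigen-binding arms to the Fc and carries the cysteines that link the heavy chains. The hinge is the second coding exon of each gene. These exons are shown because they separate the 4 subclasses whose balance is described below. Sequences are from the GENCODE M21 transcripts, 5′ to 3′ on the coding strand, with in-frame cysteine codons in capitals.
Ighg3 hinge (chr12:113360529-113360576): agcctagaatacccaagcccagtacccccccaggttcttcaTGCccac
Ighg1 hinge (chr12:113329844-113329882): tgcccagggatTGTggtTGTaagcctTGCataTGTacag
Ighg2b hinge (chr12:113307261-113307326): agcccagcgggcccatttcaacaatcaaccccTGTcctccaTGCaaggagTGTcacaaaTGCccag
Ighg2c hinge (chr12:113288263-113288325): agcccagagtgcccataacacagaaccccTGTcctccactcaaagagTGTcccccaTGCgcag
The *Ighg1* and *Ighg2b* hinges hold 4 cysteine codons each, that of *Ighg2c* holds 3, and that of *Ighg3* holds 1. The hinge exon is 39 bases long in *Ighg1*, 48 in *Ighg3*, 63 in *Ighg2c*, and 66 in *Ighg2b*.

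Outside the hinge the genes are more alike, which bears on how well reads can be assigned to them. Over the 291 bases of the first coding exon, pairs of IgG genes were identical at 78.4% to 88.3% of positions. The longest run common to *Ighg2b* and *Ighg2c* is 78 bases in the third exon, at chr12:113306869-113306946 in *Ighg2b*.
Shared by Ighg2b and Ighg2c: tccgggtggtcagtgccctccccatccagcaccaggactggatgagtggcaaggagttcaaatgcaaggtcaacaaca
The reads were 100 bases long as sequenced, and no 100-base window of the secreted transcript of any of the 8 genes occurred in that of another, although a trimmed read could fall inside the shared run. Reads were visibly divided between members in 1 library. In AAV-mVEGF-C 1, *Ighg2b* was given 41847.64 reads and *Ighg2c* 23216.36, whereas all other values of the 8 genes were whole numbers. The split between *Ighg2b* and *Ighg2c* is thus less certain than their sum.

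The 4 libraries held 32520709 to 46409700 reads assigned to genes. *Ptprc*, which encodes CD45, was present in all of them at 945 to 1150 CPM (counts scaled to library size, with TMM factors). AAV-CTRL 1 stood apart: it was the deepest library, yet reads fell on 20993 genes in it and on 29230 to 37535 in the others. *Vegfc* itself had 208 and 106 reads in the control pools and 65 and 59 in the VEGF-C pools, and *Flt4*, which encodes VEGFR-3, had 38 and 61 reads against 56 and 52. Neither vector was thus visible as a higher level of its gene in the sorted cells.

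Heavy constant transcripts took a larger share of the RNA after AAV-mVEGF-C, and most of the added share was switched. The 8 genes together held 0.0938% and 0.177% of all TPM (transcript abundance corrected for gene length and library total) in the control pools against 0.374% and 0.394% in the VEGF-C pools. The geometric means differed 2.98-fold, a log2 difference of 1.58 against a pooled SD of 0.46. The 6 switched genes summed to 540 and 651 TPM in the control pools and to 2817 and 2914 TPM in the VEGF-C pools. The unswitched genes summed to 398 and 1114 TPM in the control pools and to 923 and 1024 TPM in the VEGF-C pools. The groups were apart for the switched sum and overlapped for the unswitched sum.

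**Figure D1:**
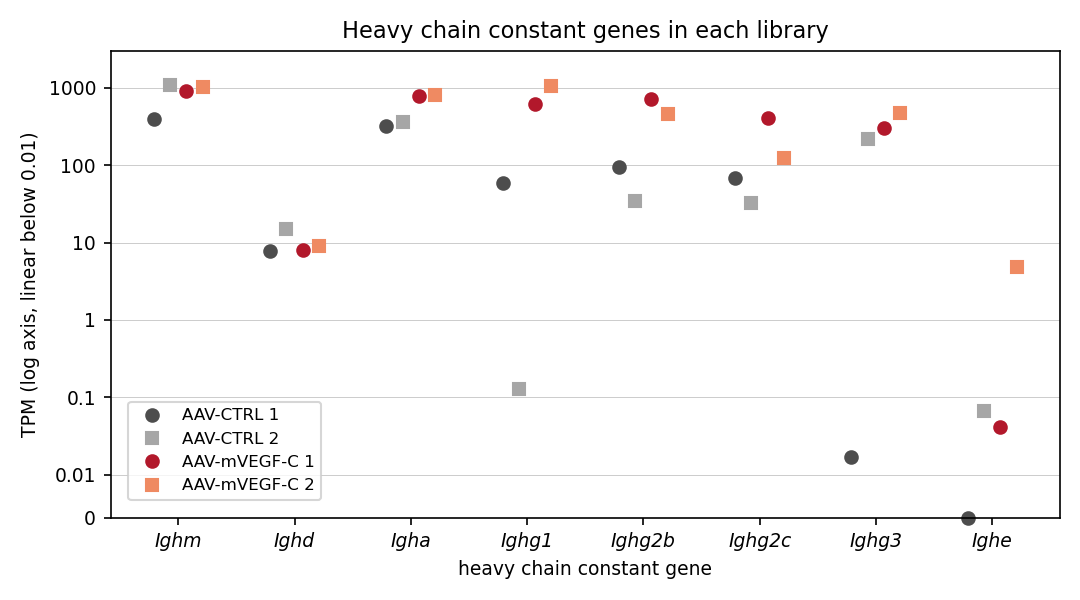
TPM of each heavy chain constant gene (x axis) in each of the 4 libraries, on a log axis that is linear below 0.01. Both AAV-mVEGF-C libraries (red and orange) lie above both AAV-CTRL libraries (dark and light gray) for Igha and the 4 IgG genes, while Ighm, Ighd, and Ighe overlap; Ighg1 in AAV-CTRL 2, at 0.129 TPM, and Ighg3 in AAV-CTRL 1, at 0.017 TPM, lie far below their group partners.

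*Ighm* and *Ighd*, the unswitched genes, did not separate the groups in TPM or CPM. *Ighm*, whose product is the first antibody class made, was at 390 and 1099 TPM in the control pools and at 915 and 1015 TPM in the VEGF-C pools. The lowest and the highest value both belonged to AAV-CTRL. The log2 fold change in CPM was 0.51 ± 0.42 (SE), with an adjusted p of 0.999 (edgeR's quasi-likelihood test, Benjamini-Hochberg over 19806 genes), and it was -0.02 without AAV-CTRL 1 and 1.34 without AAV-CTRL 2.

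*Ighd*, whose product accompanies IgM on mature naive B cells, was at 7.77 and 15.1 TPM in the control pools and at 8.01 and 9.01 TPM in the VEGF-C pools. The AAV-mVEGF-C values lay between those of the controls. The log2 fold change was -0.27 ± 0.30 (SE), with an edgeR adjusted p of 0.999, and it was 0.20 without AAV-CTRL 2.

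*Igha* had the smallest relative error among the genes with higher levels. It encodes the heavy chain of IgA, the class of mucosal surfaces, and was at 318 and 365 TPM in the control pools and at 784 and 815 TPM in the VEGF-C pools. Both VEGF-C pools were above both controls, and within each group the libraries were close to each other. The log2 fold change was 1.38 ± 0.16 (SE), with an unadjusted p of 0.000134 and an adjusted p of 0.331 in edgeR's quasi-likelihood test. With each library left out in turn it stayed between 1.32 and 1.43.

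*Ighg2b* and *Ighg2c*, which encode IgG subclasses that bind activating Fc receptors and complement, were higher after AAV-mVEGF-C but unequal between pools. *Ighg2b* was at 94.6 and 34.2 TPM in the control pools and at 724 and 452 TPM in the VEGF-C pools. The lowest AAV-mVEGF-C value was above both controls. The log2 fold change was 3.33 ± 0.54 (SE), with an unadjusted p of 0.000823 and an adjusted p of 0.604 (edgeR). It was 4.30 without AAV-CTRL 1 and 2.75 without AAV-CTRL 2.

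*Ighg2c*, the form of IgG2 carried by C57BL/6 mice in place of *Ighg2a*, was at 68.1 and 32.4 TPM in the control pools and at 401 and 125 TPM in the VEGF-C pools. The groups did not overlap, although AAV-mVEGF-C 2 was closer to AAV-CTRL 1 than to AAV-mVEGF-C 1. The log2 fold change was 2.54 ± 0.62 (SE), with an unadjusted p of 0.00643 and an adjusted p of 0.999 (edgeR). It was 1.46 without AAV-mVEGF-C 1, 3.14 without AAV-mVEGF-C 2, and 3.23 without AAV-CTRL 1.

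*Ighg1* and *Ighg3* had control libraries at opposite ends of the range. *Ighg1*, the IgG1 gene, which is typical of responses to protein antigens with T cell help, had 3465 and 8 reads in the control pools (59.6 and 0.129 TPM) and 33804 and 46652 reads in the VEGF-C pools (607 and 1044 TPM). Its log2 fold change of 4.91 ± 1.87 (SE; edgeR unadjusted p = 0.0387, adjusted p = 0.999) depended on the control, being 3.91 without AAV-CTRL 2 and 12.27 without AAV-CTRL 1. Both VEGF-C pools were nevertheless far above the higher control.

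*Ighg3*, the gene of IgG3, a class often made against carbohydrate antigens, showed the reverse order, with 1 and 9429 reads in the control pools (0.017 and 219 TPM) against 17033 and 21615 reads in the VEGF-C pools (302 and 473 TPM). The VEGF-C pools were above AAV-CTRL 2 by a modest margin and above AAV-CTRL 1 by orders of magnitude. The log2 fold change was 2.03 ± 2.04 (SE; edgeR adjusted p = 0.999), and it was 1.03 without AAV-CTRL 1 and 14.41 without AAV-CTRL 2. Each of these subclasses was thus close to absent from a different control pool.

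*Ighe*, the gene of IgE, the class that arms mast cells, was the rarest. It had 0 and 4 reads in the control pools and 3 and 285 reads in the VEGF-C pools, and the groups overlapped. The 285 reads of AAV-mVEGF-C 2 corresponded to 4.77 TPM, and the other libraries were at or below 0.066 TPM. A count of 0 allows up to 3 reads, and the other libraries lay at or near that limit. The gene did not pass edgeR's filter on low counts and was not tested in the main fit. With no filter it was among the 6 members called higher (edgeR), at a log2 fold change of 6.31 that rests on the 285 reads of AAV-mVEGF-C 2.

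Across the 8 genes, 7 were tested and 0 passed an adjusted p of 0.05 in edgeR's quasi-likelihood test, where 0% of the 19806 tested genes passed. At an unadjusted p under 0.05, 4 members were higher, *Igha*, *Ighg1*, *Ighg2b*, and *Ighg2c*, beside 1.46% of all tested genes. Both VEGF-C pools exceeded both control pools in CPM for 5 of the 7 tested members, the same 4 and *Ighg3*, beside 16.8% of all tested genes. The median log2 fold change of the 7 was 2.03, which is the value of *Ighg3*, and that of all tested genes was 0.0034. The median was 1.32 without AAV-CTRL 1, and 1.39 over the 5 members with at least 10 reads in every library. With DESeq2, the tool named for this comparison in the methods, *Igha* (adjusted p = 8.59e-10) and *Ighg2b* (adjusted p = 0.00934) passed, while 0.152% of 40674 genes were called higher. With a replicate block by experiment number, *Ighg2b* and *Ighg2c* passed, beside 0.0555% of tested genes called higher, and with the numbers crossed between the groups, a pairing chosen after seeing the data, *Igha* and *Ighg2b* passed, beside 0.268%, and *Ighg2c* had an adjusted p of 0.521 (edgeR). The count in edgeR also turned on the controls, with 4 members called higher without AAV-CTRL 1, beside 0.48% of all tested genes, and 6 without AAV-CTRL 2, beside 6.16%. Without either AAV-mVEGF-C library 0 were called, and with no filter on low counts 6 were called higher, beside 0.47% of 40674 genes.

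The class balance differed mainly between IgM and IgG. *Ighm* held 41.6% and 62.3% of the summed heavy constant TPM in the control pools and 24.5% and 25.8% in the VEGF-C pools. The 4 IgG genes together held 23.7% and 16.2% in the control pools and 54.4% and 53.2% in the VEGF-C pools. *Igha* held 33.9% and 20.7% against 20.95% and 20.7%, so that its share overlapped between the groups although its level did not.

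**Figure D2:**
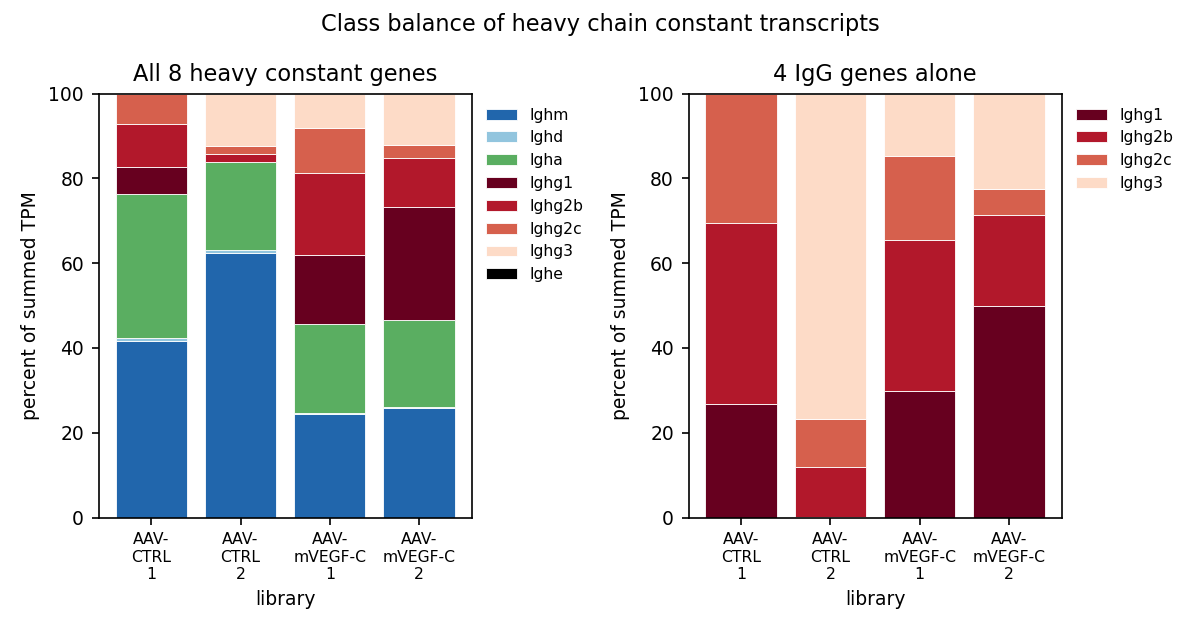
Share of each gene in the summed TPM of the 8 heavy constant genes (left) and of the 4 IgG genes (right), in percent, with a bar for each library. The IgG part of the left bars is 23.7% and 16.2% in the control pools against 54.4% and 53.2% in the VEGF-C pools, and the right bars show Ighg3 at 76.7% in AAV-CTRL 2 and near 0 in AAV-CTRL 1.

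Switched genes as a whole held 57.6% and 36.9% of heavy constant TPM in the control pools and 75.3% and 74.0% in the VEGF-C pools. Counted in reads, the switched share was 47.03% (95% Wilson interval 46.7% to 47.4%) and 28.2% (27.9% to 28.5%) in the control pools. It was 67.6% (67.4% to 67.8%) and 65.9% (65.7% to 66.1%) in the VEGF-C pools. These intervals cover counting error only and are far narrower than the spread between the control pools.

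The order of the genes differed as well. *Ighm* and *Igha* were the top pair in AAV-CTRL 1, in AAV-CTRL 2, and in AAV-mVEGF-C 1, while in AAV-mVEGF-C 2 *Ighg1* led, with 1044 TPM, next to *Ighm* with 1015 TPM. *Ighd* ranked above *Ighg3* in AAV-CTRL 1 and above *Ighg1* in AAV-CTRL 2, but below all IgG genes in both VEGF-C pools. In the VEGF-C pools the range of *Ighg1* took in those of *Ighm* and *Igha*, and the range of *Ighg3* overlapped with those of *Ighg2b* and *Ighg2c*, so the order of these neighbors was not fixed beyond the spread between pools.

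The ratio of switched to unswitched transcripts was 1.36 and 0.584 in the control pools and 3.05 and 2.85 in the VEGF-C pools. The means were 0.971 ± 0.547 and 2.95 ± 0.144 (SD, n = 2 per group). The groups did not overlap, and the log2 difference was 1.73, or 3.31-fold, against a pooled SD of 0.61. The exact two-sided permutation test gave p = 0.333, which is the smallest value that 2 pools against 2 can give; the same p held for each of the 5 ratios tested, and adjustment over the 5 left it at 0.333. The size of the difference depended on which switched genes were counted, with a log2 difference of 2.49 for the IgG genes alone and 0.68 for *Igha* alone over the unswitched genes. It was 2.34 without AAV-CTRL 1 and 1.12 without AAV-CTRL 2.

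The ratio of IgG to IgA had the narrowest spread relative to its difference. It was 0.699 and 0.783 in the control pools and 2.59 and 2.57 in the VEGF-C pools, a log2 difference of 1.80, or 3.49-fold, against a pooled SD of 0.082 (exact permutation p = 0.333). IgA exceeded IgG in both control pools, and IgG exceeded IgA in both VEGF-C pools. With each library left out in turn, the log2 difference ran from 1.72 to 1.88.

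The IgG to IgM ratio was 0.570 and 0.260 in the control pools and 2.22 and 2.06 in the VEGF-C pools. The IgA to IgM ratio was 0.815 and 0.332 in the control pools and 0.856 and 0.803 in the VEGF-C pools. The first of these separated the groups, whereas in the second AAV-CTRL 1 lay between the VEGF-C pools. *Ighd* relative to *Ighm* was 0.0199 and 0.0137 in the control pools and 0.00875 and 0.00888 in the VEGF-C pools, a log2 difference of -0.91 against a pooled SD of 0.27 (exact permutation p = 0.333). Both VEGF-C pools were below both controls.

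**Figure D3:**
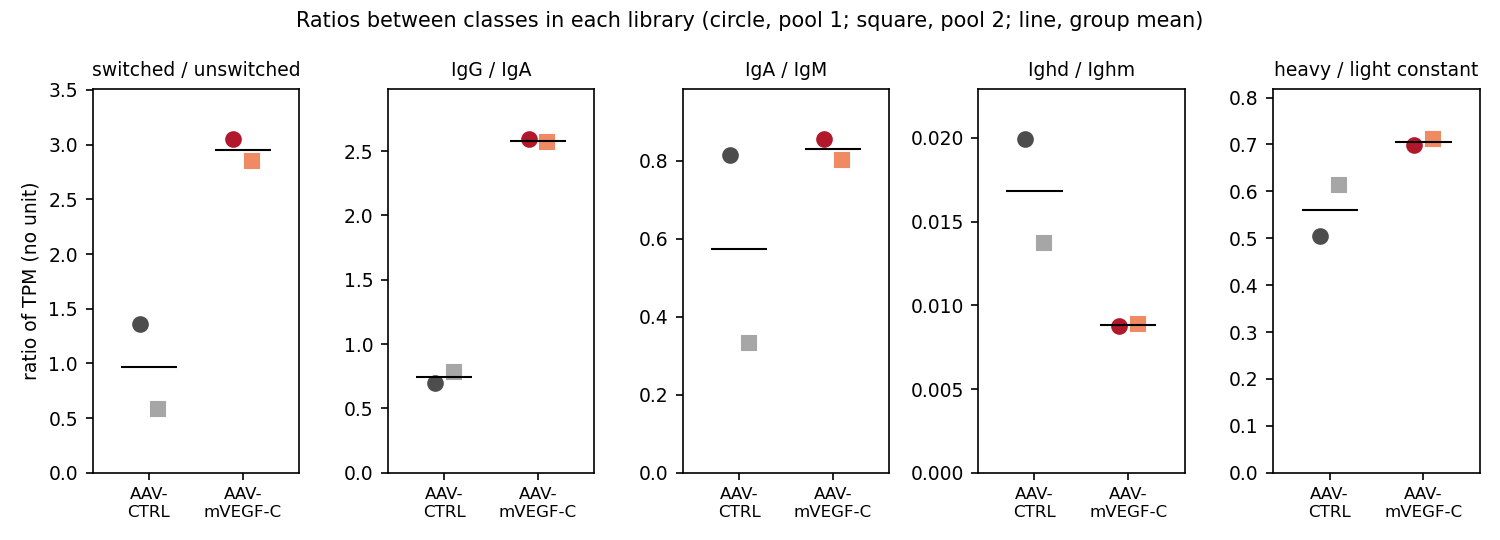
Ratios of summed TPM in each library, with circles for pool 1, squares for pool 2, and a line at each group mean (n = 2 per group). The IgG to IgA ratio is 0.699 and 0.783 in the control pools against 2.59 and 2.57 in the VEGF-C pools, while the IgA to IgM ratio of AAV-CTRL 1, 0.815, lies between the AAV-mVEGF-C values.

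Within IgG, the subclass mix was far apart in the control pools, although their IgG sums were close. The 4 IgG genes summed to 222 and 286 TPM in the control pools and to 2033 and 2094 TPM in the VEGF-C pools. In AAV-CTRL 1 this sum was 42.6% *Ighg2b*, 30.6% *Ighg2c*, 26.8% *Ighg1*, and 0.00765% *Ighg3*. In AAV-CTRL 2 it was 76.7% *Ighg3*, 12.0% *Ighg2b*, 11.3% *Ighg2c*, and 0.0451% *Ighg1*.

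In both VEGF-C pools all 4 subclasses were present. *Ighg1* held 29.8% and 49.9% of the IgG sum, *Ighg2b* 35.6% and 21.6%, *Ighg2c* 19.7% and 5.99%, and *Ighg3* 14.8% and 22.6%. For *Ighg2b*, *Ighg2c*, and *Ighg3* at least 1 of these shares lay between those of the control pools, whereas both *Ighg1* shares lay above the higher control share of 26.8%. A high IgG sum was thus common to the VEGF-C pools, and a subclass mix was not.

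The length of transcript that each gene was counted over can be read from the ratio of its reads to its TPM, and it bears on which form was made. For *Ighm* the forms differ in a short tail at the end of the fourth exon, used only in secreted transcripts, and in membrane exons that replace it. The first 60 bases of each are shown because they are what tells secreted from membrane IgM, and both are coding.
Ighm secreted tail (chr12:113420869-113420928): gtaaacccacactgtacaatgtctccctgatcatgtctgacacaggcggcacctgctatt
Ighm membrane exon (chr12:113419009-113419068): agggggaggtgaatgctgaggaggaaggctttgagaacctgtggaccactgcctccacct
The scale was set on 421 genes with a single annotated transcript, for which implied and annotated lengths differed with an SD of 6.41% to 8.07% in a library, and the group difference had an SD of 2.20% over genes. Lengths read in this way are inferred from 2 deposited values and rest on the authors' length model. For each gene, the shortest annotated transcript was taken as the secreted form and the longest as the membrane form. Reads on single exons were not analysed here.

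**Figure D4:**
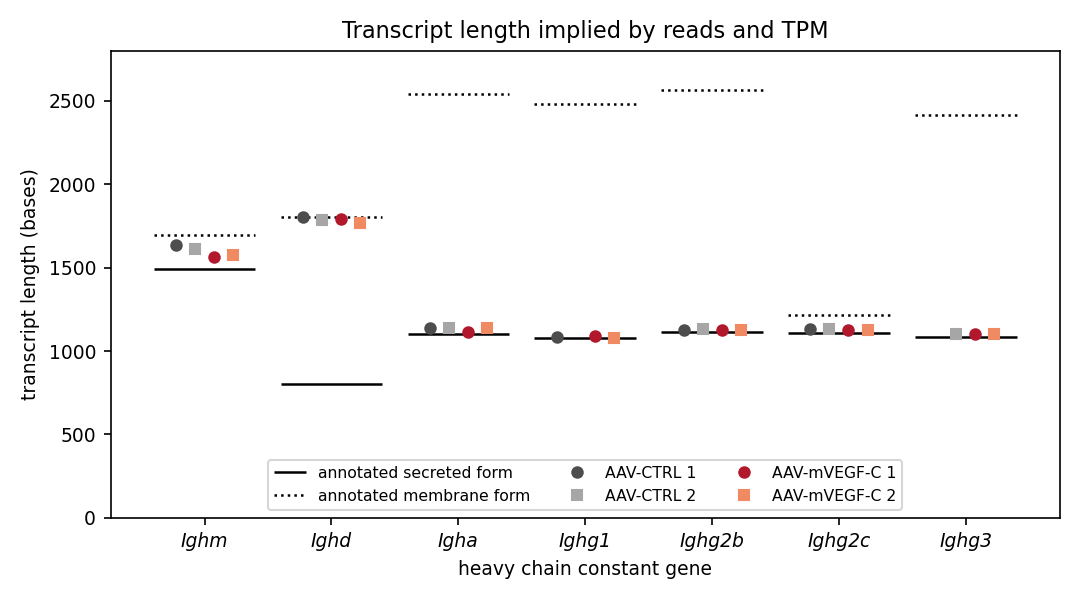
Transcript length in bases implied by the reads and TPM of each gene in each library (points). Lines mark the annotated lengths of the shortest transcript, taken as the secreted form (solid), and of the longest, taken as the membrane form (dotted). Igha, Ighg1, Ighg2b, and Ighg3 points lie at the secreted length and Ighd points at the membrane length, while Ighm points lie between the forms and lower in AAV-mVEGF-C (1563 and 1573 bases) than in AAV-CTRL (1635 and 1610 bases).

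The implied length of *Ighm* was 1635 and 1610 bases in the control pools and 1563 and 1573 bases in the VEGF-C pools. The annotated lengths are 1493 bases for the secreted and 1698 bases for the membrane form. Both VEGF-C pools were therefore nearer to the secreted form than both controls, with a difference of -3.35% of the control mean. Among the single-transcript genes, the 5th percentile of this difference was -2.47% and the 95th was 3.40%. The place of *Ighm* between its forms is uncertain at the error of a single library, and no test was made of the difference. The *Ighm* level overlapped between the groups while its implied form did not.

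*Ighd* was at 1769 to 1803 bases in the 4 libraries, close to its membrane length of 1806 bases and far from its secreted length of 802 bases. *Igha* was at 1111 to 1140 bases, near its secreted length of 1100 bases and far from its membrane length of 2540 bases. *Ighg1*, *Ighg2b*, and *Ighg3*, in the libraries with at least 100 reads, were at 1080 to 1134 bases, against secreted lengths of 1076 to 1114 bases and membrane lengths of 2414 to 2566 bases. For *Ighg2c* the annotated forms, 1111 and 1214 bases, are too similar to be separated at this error. Thus *Ighd* lay at the membrane length, and *Igha*, *Ighg1*, *Ighg2b*, and *Ighg3* lay at the secreted length in every library that could be read.

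Among genes whose products join the heavy chains, *Jchain*, *Igkc*, and *Iglc1* were higher in both VEGF-C pools, while the groups overlapped for the other lambda genes and for the genes of the receptor's signaling chains. Among 7 partners, 0 passed an adjusted p of 0.05 and 3 were higher at an unadjusted p under 0.05 (edgeR), beside 1.46% of all tested genes. Of these 7, 3 had both VEGF-C pools above both controls, beside 16.8%, 0 had both below, and the median log2 fold change was 0.92. *Jchain*, which encodes the joining chain of polymeric IgA and IgM, was at 261 and 268 CPM in the control pools and at 671 and 679 CPM in the VEGF-C pools. *Igkc*, the constant gene of kappa light chains, was at 781 and 1163 CPM in the control pools and at 2756 and 2692 CPM in the VEGF-C pools. Both had groups that did not overlap, with log2 fold changes of 1.35 ± 0.16 (SE; edgeR adjusted p = 0.331) and 1.49 ± 0.23 (SE; edgeR adjusted p = 0.548).

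*Iglc1*, a lambda light chain gene, was at 31.7 and 41.6 CPM in the control pools and at 60.02 and 101 CPM in the VEGF-C pools. Its log2 fold change was 1.13 ± 0.29 (SE; edgeR adjusted p = 0.999). The other lambda constant genes overlapped between the groups, *Iglc2* with 28.8 and 67.2 against 57.3 and 49.1 CPM and *Iglc3* with 7.86 and 29.9 against 28.8 and 42.3 CPM. *Cd79a* and *Cd79b*, which encode the signaling chains of the membrane receptor, had log2 fold changes of -0.76 ± 0.42 and -0.76 ± 0.42 (SE; edgeR adjusted p = 0.999 for both), and for both the groups overlapped and AAV-CTRL 2 was highest. The ratio of heavy to light constant TPM was 0.505 and 0.614 in the control pools and 0.699 and 0.711 in the VEGF-C pools, a log2 difference of 0.34 against a pooled SD of 0.14 (exact permutation p = 0.333). Counted in reads the difference shrank to 0.078, and in TPM without AAV-CTRL 1 to 0.20.

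The genes with profiles most like those of the members over the 4 libraries were sought among 9332 tested genes with a mean of at least 10 CPM, by the distance between centered log2(CPM + 1) profiles. These likenesses are descriptions over 4 libraries. *Igha* was nearest to *Jchain* (distance 0.077), then *Slpi* (0.336) and *Igkc* (0.363). *Ighm* was nearest to *Kcna3* (0.031), which encodes a potassium channel of lymphocytes. *Ighd* was nearest to *Tmem86a* (0.065) and *Bach2* (0.067), the latter a transcription factor of B cells. *Ighg2b* was nearest to the kappa variable gene *Igkv6-15* (0.902) and *Ighg2c* to the heavy variable gene *Ighv1-69* (0.483).

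For *Ighg1* and *Ighg3* the nearest genes lay at larger distances than for the other tested members. The distance grows with the range of a profile, and both ranges were wide because a control pool was near 0. The nearest to *Ighg1* was *Igkv13-84*, at a distance of 4.44, and the nearest to *Ighg3* was the predicted gene *Gm12896*, at 1.32. *Gm12896* and the small nucleolar RNA gene *Rnu3a*, the next, were both at 0 CPM in AAV-CTRL 1, the library that held 1 *Ighg3* read.

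Of 13 receptors and carriers of antibody classes, 12 were tested, 2 with fold changes above and 10 below 0, and the median log2 fold change was -0.17. In edgeR, 0 passed an adjusted p of 0.05 and 1 was lower at an unadjusted p under 0.05, beside 1.18% of all tested genes. Both VEGF-C pools were below both controls for 3 of the 12, beside 15.2% of all tested genes. Among the 12, only *Pigr*, which carries polymeric IgA and IgM across epithelia, was higher in both VEGF-C pools, with 64 and 14 reads against 0 and 8. *Fcer1a*, which encodes the IgE-binding chain of the mast cell receptor, had 719 and 338 reads in the control pools and 287 and 197 in the VEGF-C pools (log2 fold change -0.93 ± 0.32 SE, edgeR unadjusted p = 0.0272, adjusted p = 0.999). *Fcgr2b*, the inhibitory receptor for IgG, had a log2 fold change of -0.0039 ± 0.15 (SE).

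The machinery of class switching showed no common direction. Of 31 listed genes, 30 were found by symbol and tested, 0 passed an adjusted p of 0.05, 1 was lower at an unadjusted p under 0.05 (edgeR), beside 1.18% of all tested genes, and the median log2 fold change was 0.0004. Fold changes were above 0 for 15 and below 0 for 15. Both VEGF-C pools were above both controls for 6 of the 30, beside 16.8% of all tested genes, and below for 8, beside 15.2%. *Xrcc6*, which encodes the Ku70 subunit of the end-joining complex, had the lowest unadjusted p of the list, 0.0326, with 1543 and 1169 reads against 859 and 836.

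Of 13 plasma cell markers, 11 were higher in both VEGF-C pools, beside 16.8% of all tested genes, and 0 lower in both, with a median log2 fold change of 0.55. In edgeR, 0 passed an adjusted p of 0.05 and 4 were higher at an unadjusted p under 0.05, beside 1.46% of all tested genes. Their summed level was 520 and 601 CPM in the control pools and 676 and 685 CPM in the VEGF-C pools. *Prdm1*, a transcription factor that drives plasma cell formation, had a log2 fold change of 0.64 ± 0.20 (SE; unadjusted p = 0.0178, adjusted p = 0.999). *Derl3*, a gene of protein quality control in the endoplasmic reticulum, had 2 and 55 reads against 232 and 145.

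Of 12 B cell markers, 0 were higher in both VEGF-C pools and 2 lower in both, beside 15.2% of all tested genes, with a median log2 fold change of -0.45. In edgeR, 0 passed an adjusted p of 0.05 and 2 were lower at an unadjusted p under 0.05, beside 1.18% of all tested genes. Their summed level was 422 and 971 CPM in the control pools and 453 and 495 CPM in the VEGF-C pools. The groups overlapped, and AAV-CTRL 2, which was highest, was also the library with the most *Ighd*. *Ighm* in the VEGF-C pools (1946 and 2165 CPM) was near its level in AAV-CTRL 2 (2087 CPM), at B cell marker sums nearer to that of AAV-CTRL 1.

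Markers of other cells also differed between the libraries. Mast cell markers summed to 1699 and 1173 CPM in the control pools and 956 and 1017 CPM in the VEGF-C pools, with 5 of 6 lower in both. Fibroblast markers, which a CD45+ sort should remove, summed to 652 and 1041 against 353 and 549 CPM, with 5 of 6 lower in both, and erythroid markers to 115 and 141 against 25.5 and 47.2 CPM, with 4 of 4 lower in both, where 15.2% of all tested genes were lower in both. At an unadjusted p under 0.05, 4 mast cell, 4 fibroblast, and 4 erythroid markers were lower (edgeR), beside 1.18% of all tested genes. T cell markers summed to 213 and 191 CPM in the control pools against 253 and 247 CPM, with 3 of 6 higher in both, beside 16.8% of all tested genes, and 2 higher at an unadjusted p under 0.05, beside 1.46%. Endothelial markers summed to 64.7 and 74.8 against 55.9 and 56.6 CPM, with 3 of 5 lower in both and 1 lower at an unadjusted p under 0.05 (edgeR). Fold changes were above 0 for the other 2, *Prox1* and *Flt4*. Of these, *Prox1* was higher in both VEGF-C pools, at 0.335 and 0.377 against 0.997 and 0.819 CPM. No defining marker of these lists was at 0 in all libraries, none passed an adjusted p of 0.05 (edgeR), and the part of these cells in the class balance was not tested. The groups overlapped for macrophage markers, at 918 to 1590 CPM over the 4 libraries, and for neutrophil markers, at 7131 to 14659 CPM.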

How the data were processed

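The authors deposited estimated counts per gene (not normalized, 8.18% of the values with decimals) and TPM values. Per the submitters' processing notes, FastQC, Trimmomatic, DRAGEN, and Picard were used with mm10; their roles and versions and the annotation were not given in the sources used here. Libraries were stranded total RNA, amplified by PCR. Of the gene identifiers, 54349 of 55401 occur with the same version in GENCODE M21 (GRCm38).

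Estimated counts were rounded and tested with edgeR 4.0.16 in R 4.3.3 (quasi-likelihood, TMM, filterByExpr, 19806 genes, 4 libraries, no covariate, Benjamini-Hochberg threshold 0.05). A standard error is the log2 fold change divided by the square root of F. TPM served for levels, shares, and ratios between genes, the ratios being compared with exact two-sided permutation tests over 6 splits. Named genes were the 8 constant genes, all genes of fixed lists as counts and medians with examples, and the 3 most similar genes of each member. Examples from the lists were picked with their values known. The members and lists were chosen with earlier results of these data known. Implied lengths used genes with at least 500 reads in every library and a single transcript of 800 to 6000 bases. The fit was also run on simulated counts with a lower spread between libraries than the common one of the data, and no result here rests on that run.

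Alternatives were DESeq2 1.42.0, limma 3.58.1 (voom, and TPM with pseudocounts of 1 and 0.1), other scalings and filters, a replicate block, reads in place of TPM, and each library left out. A crossed block, another calibration, and leave-outs for the implied length were chosen after seeing the data. The libraries held 32520709 to 46409700 assigned reads. Counting error was estimated for shares of reads only, and it was not compared with the spread between pools for single members.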

Additional observations from a re-analysis of the deposited data

How the results depend on the processing

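Of 96 alternative fold changes of single members, 94 kept their direction. The exceptions were *Ighm*, at -0.022 without AAV-CTRL 1 (log2, -0.022 to 1.34 over the leave-outs), and *Ighd*, at 0.20 without AAV-CTRL 2 (-0.62 to 0.20). The number of members past the adjusted threshold was 0 in edgeR's main test and 2 with DESeq2 (*Igha* and *Ighg2b*). It was 6 with no filter on low counts (0.47% of all genes called higher), and 0 to 6 with each library left out (6.16% called higher without AAV-CTRL 2), where the lone library of a group is assumed to vary like the others. It stayed at 0 with limma-voom, limma on TPM with either pseudocount, other scalings, and at least 10 reads in every library. With the replicate block it was 2, *Ighg2b* (adjusted p = 0.0270) and *Ighg2c* (adjusted p = 0.0450), with 0.0555% of all tested genes called higher. The labels share experiment numbers only, the column names carry other numbers, and same-numbered libraries deviated with a correlation of -0.13 over 19806 genes. With the crossed replicate block, chosen after seeing the data, 2 members and 54 genes were called. The log2 difference of the switched to unswitched ratio was 2.49 with IgG only and 0.68 with *Igha* only in the numerator, and that of the heavy to light ratio was 0.078 in reads. Other counting choices moved the 5 ratios by less than the pooled SD. With each library left out, the log2 differences were 1.12 to 2.34 (switched to unswitched), 1.72 to 1.88 (IgG to IgA), 1.12 to 2.03 (heavy share), 0.20 to 0.48 (heavy to light), and -1.18 to -0.64 (*Ighd* to *Ighm*), and with 2 pools a group such a shift cannot exceed the pooled SD. The difference in implied length of *Ighm* was -4.09% to -2.60% with each library left out and -3.22% with another calibration, both chosen after seeing the data. With 2 pools a group, no ratio could reach a p below 0.333.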
